A study of Mus musculus with 9 samples.

Results

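The mouse genes Vax2, Vax2os, Trh, Grin1, Stmn3 and Rpl10l were followed across all 9 libraries of a study of the coactivator Yap1 in embryonic stem (ES) cells. They are 6 of the 18504 genes with a usable row in the deposited table. The genes had been picked by their names because their values were higher in both libraries labelled as Yap1 knockouts and in the Yap1 knockdown of undifferentiated cells, and lower under Yap1 overexpression. Those differences therefore chose the genes and are given below as descriptions, without a test. The differentiated libraries are not named in that reason, but earlier results of these data were known when the genes were chosen.

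All libraries were polyadenylated RNA of J1 cells, a mouse ES cell line of strain 129S4/SvJae, at passage 5 to 7, and each group has 1 library unless stated. The undifferentiated groups were BirA (the control of the overexpression), Yap1_OE (overexpression), ESC (the control of the knockouts), Yap1_KO (2 libraries, Yap1_KO1 and Yap1_KO2), Control (the control of the knockdown) and Yap1_KD (knockdown). ES cells that had been differentiated gave a control (dESC_control) and a knockdown library (dESC_Yap1_KD). The construct, the edit, the knockdown reagent and the differentiation protocol are not stated in the labels, and nothing says that Yap1_KO1 and Yap1_KO2 came from separate clones or cultures. A difference of 1 library from 1 other cannot be set against replicates, and none is given a p-value.

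Yap1 is a transcriptional coactivator that the Hippo kinase cascade keeps out of the nucleus. In the nucleus it binds TEAD proteins, which recognise a short DNA motif, and it is known mostly for raising genes of growth, adhesion and the cytoskeleton, although YAP and TEAD proteins can also hold genes down. The 6 genes are known from other settings than ES cells: Vax2 and its antisense neighbour Vax2os from the developing eye, Trh from the hypothalamus, Grin1 and Stmn3 from neurons, and Rpl10l from the testis.

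Values are FPKM, a fragment number corrected for transcript length and library size, so levels of different genes can be set side by side per length. Estimated depth ran from 9.30 M fragments in Yap1_KO1 to 22.6 M in Control. Yap1 itself was at 65.4 FPKM in ESC, 57.3 in Yap1_KO1 and 27.6 in Yap1_KO2, so the knockout-labelled libraries kept Yap1 RNA and directions drawn from them are directions of the libraries so labelled. It was at 37.4 in Control and 4.55 in Yap1_KD, at 46.7 in BirA and 139 in Yap1_OE, and at 78.0 in dESC_control and 12.5 in dESC_Yap1_KD. All 7 ES cell markers looked at (Pou5f1, Nanog, Sox2, Zfp42, Esrrb, Utf1 and Dppa5a) were above 1 FPKM in every library, with a summed level of 4349 to 6189 FPKM in undifferentiated cells, 2081 in dESC_control and 3182 in dESC_Yap1_KD. Because these are bulk samples, fewer cells of a type and less RNA per cell cannot be told apart.

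**Figure D1:**
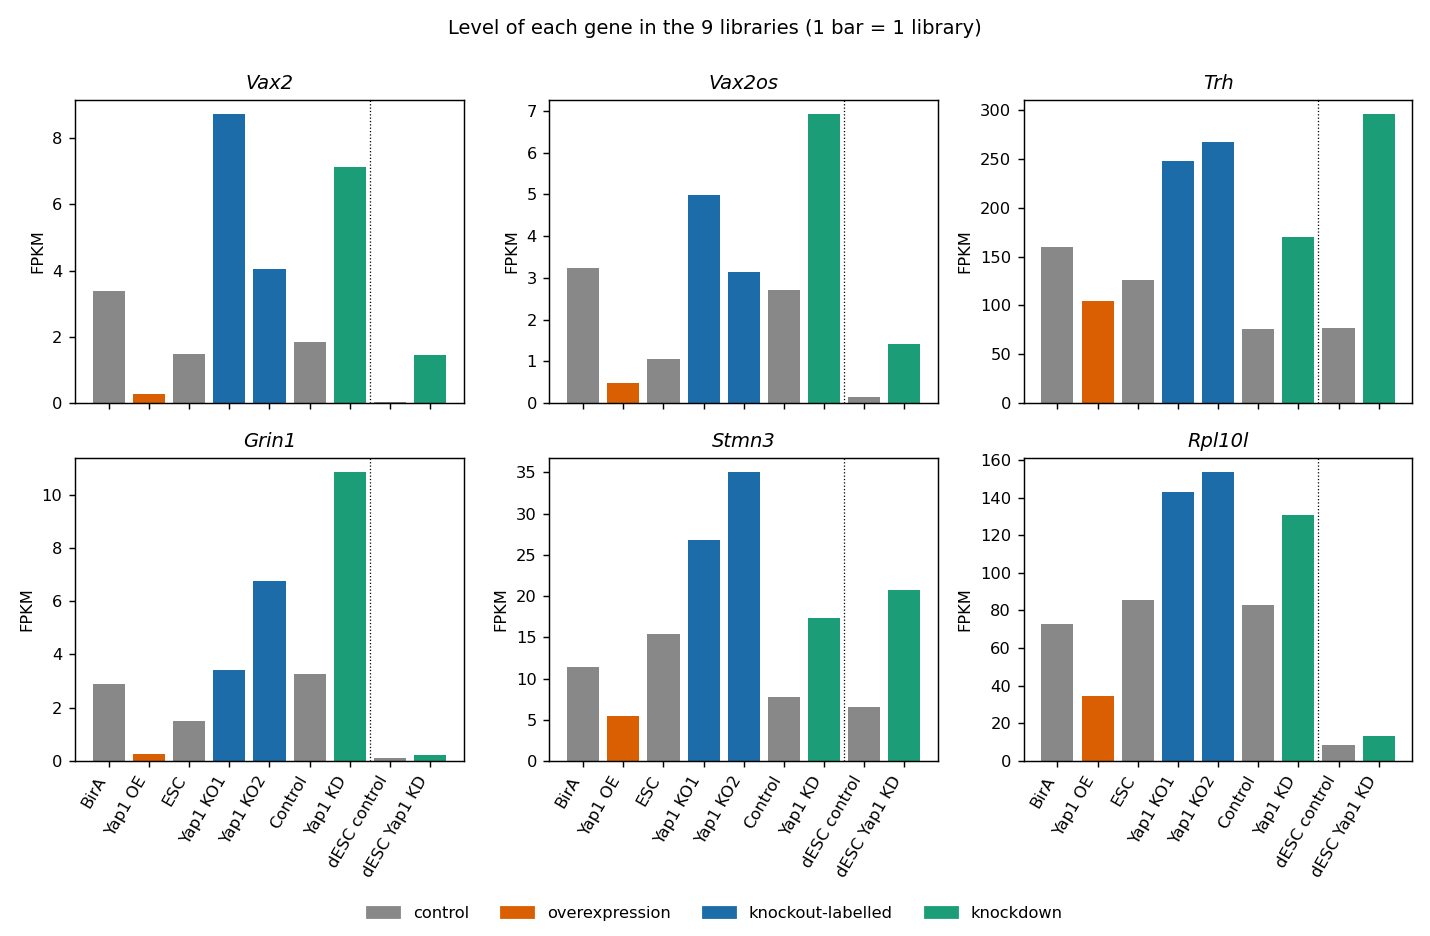
FPKM (vertical axis, from 0) of each of the 6 genes in the 9 libraries, 1 bar for each library, with the 2 differentiated libraries to the right of the dotted line. In each panel the knockout-labelled and knockdown bars stand above their own control and the overexpression bar stands below BirA. Rpl10l and Grin1 are lower in both differentiated libraries than in any undifferentiated one. Vax2 and Vax2os are lowest in dESC_control and stand at 1.46 and 1.42 FPKM in dESC_Yap1_KD, beside 1.48 and 1.05 in ESC. Trh is highest in the differentiated knockdown at 296 FPKM.

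Vax2 encodes a homeodomain transcription factor of the ventral retina and forebrain. Its levels were 1.48 FPKM in ESC, 8.73 in Yap1_KO1 and 4.06 in Yap1_KO2, and 1.84 in Control against 7.15 in Yap1_KD. In the overexpression arm it was at 3.38 FPKM in BirA and 0.292 in Yap1_OE. The 3 libraries labelled for loss of Yap1 were all above the 3 undifferentiated controls, and the overexpression library was below all of them. The FPKM ratios were 5.88 (95% interval 3.78 to 9.14) and 2.74 (1.69 to 4.34) for the knockout-labelled libraries, 3.89 (2.81 to 5.39) for the knockdown and 0.0862 (0.0355 to 0.180) for overexpression. Here and below, intervals are exact binomial intervals on estimated fragments and cover counting error only. Where a contrast chose the genes, its interval makes no allowance for that choice, which favours large ratios, and is not a test. The controls alone spanned 2.28-fold, from ESC to BirA.

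Vax2os is a long noncoding RNA transcribed from the opposite strand of the Vax2 locus. In the RefSeq annotation of GRCm38.p6 its gene overlaps the start of Vax2 by 963 bases. One of its annotated starts lies inside Vax2, 962 bases past the Vax2 start, and another lies 414 bases upstream of it. The labels do not state whether the libraries keep strand, and without it reads from the overlap cannot be told apart between the genes. The sequence before the upstream Vax2os start is shown because both genes are transcribed away from it; it covers chr6:83710826-83711075 of GRCm38.p6 on the minus strand, from RefSeq, 5′ to 3′, with no base in capitals because the searched motif is not in it.
Vax2os: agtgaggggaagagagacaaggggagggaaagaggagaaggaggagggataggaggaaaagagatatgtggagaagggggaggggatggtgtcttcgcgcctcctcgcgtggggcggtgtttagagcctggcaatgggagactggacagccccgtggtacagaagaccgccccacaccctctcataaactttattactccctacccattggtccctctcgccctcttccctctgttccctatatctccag

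Vax2os was at 1.05 FPKM in ESC, 4.99 in Yap1_KO1 and 3.13 in Yap1_KO2. It was at 2.72 in Control and 6.92 in Yap1_KD, and at 3.24 in BirA and 0.487 in Yap1_OE. The FPKM ratios were 4.77 (95% interval 3.55 to 6.40), 2.99 (2.21 to 4.03), 2.54 (2.18 to 2.97) and 0.150 (0.106 to 0.210), in that order of libraries. It varied with Vax2 across the 9 libraries (Pearson r = 0.96 on log2(FPKM + 1)), and the pair shares libraries and part of its sequence. The controls differed as much as some of the contrasts did: BirA stood 3.10-fold above ESC, as far as 2-fold or more on log2(FPKM + 1), which 1.14% of 11508 genes reached, and Yap1_KO2 lay below BirA. Of the nearest genes on either side, Atp6v1b1 was at 0 FPKM in 8 of 9 libraries and at 0.0604 in Yap1_KD, and Cd207 was at most at 0.0950 FPKM. The genes beside Vax2 and Vax2os were thus close to 0 throughout. Of 17 other eye and ventral forebrain factors in the file 5 reached 1 FPKM in Yap1_KD or Control, and 0 were at least 2-fold higher or lower. Of all genes 0.506% were in each direction, so a count of 0 in so short a list does not set it apart. In both knockout-labelled libraries it was also 0 of 5, beside 0.191% higher and 0.979% lower. Mitf lay in the direction of the 6 genes, at 3.66 FPKM in ESC against 8.46 and 6.20 in Yap1_KO1 and Yap1_KO2. It was at 4.06 in Control against 4.54 in Yap1_KD, and at 4.12 in BirA against 1.80 in Yap1_OE. Ephb2 was at 10.5 in ESC against 5.74 and 6.38. In the differentiated knockdown 1 of 5 (Otx2) was at least 2-fold higher and 1 (Efnb1) lower, beside 1.71% and 4.77%. Vax1, the paralog of Vax2, was at 0 FPKM in 6 libraries and at most 0.180 in the others.

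Trh encodes the precursor of thyrotropin-releasing hormone, a tripeptide cut out of a longer protein in several copies. It was the most abundant of the 6 genes in 8 of 9 libraries, the exception being Control, where Rpl10l stood higher. Its levels were 126 FPKM in ESC, 247 in Yap1_KO1 and 267 in Yap1_KO2. They were 76.4 in Control and 170.2 in Yap1_KD, and 160.2 in BirA and 104 in Yap1_OE. The FPKM ratios were 1.96 (95% interval 1.86 to 2.06), 2.12 (2.02 to 2.22), 2.23 (2.12 to 2.34) and 0.651 (0.620 to 0.684). At these levels counting error is small, and the difference between controls is the larger spread: they spanned 2.10-fold, from Control to BirA, where 0.409% of 11748 genes were at least 2-fold higher in BirA. Yap1_OE lay below BirA and ESC but above Control. The hormone receptor genes Trhr and Trhr2 were below 1 FPKM in every library, while some genes that process the hormone were expressed. Of 13 genes in the file for its processing, receptors and the thyroid axis, 3 reached 1 FPKM in the knockout comparison and 4 in the knockdown comparison, and 0 were at least 2-fold apart, where 0.191% of all genes were higher and 0.979% lower in both knockout-labelled libraries and 0.506% each way in the knockdown. Those present included Cpe, a carboxypeptidase that trims prohormones (7.24 FPKM in Control and 7.83 in Yap1_KD), and Pam, which amidates peptide ends (3.20 and 2.91). Under overexpression and in the differentiated knockdown pair 7 of the 13 reached 1 FPKM and 0 were at least 2-fold apart. Over all genes 1.6% were higher and 2.35% lower under overexpression, and 1.71% and 4.77% in the differentiated pair. Pcsk1 was at 2.76 FPKM in dESC_control and 1.60 in dESC_Yap1_KD.

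Grin1 encodes GluN1, the subunit that every NMDA-type glutamate receptor needs. It was at 1.52 FPKM in ESC, 3.43 in Yap1_KO1 and 6.75 in Yap1_KO2. Its levels were 3.25 in Control and 10.8 in Yap1_KD, and 2.90 in BirA and 0.270 in Yap1_OE. The FPKM ratios were 2.26 (95% interval 1.72 to 2.95), 4.45 (3.54 to 5.61), 3.33 (2.93 to 3.81) and 0.0931 (0.0602 to 0.143). All loss libraries were above all 3 controls and Yap1_OE was below them, although Yap1_KO1 (3.43) exceeded Control (3.25) by little. The antisense gene Grin1os overlaps Grin1 by 7403 bases in the GRCm38.p6 annotation. It was at 0.823 FPKM in Control, 1.34 in Yap1_KD and at most 0.159 elsewhere, so it was low next to Grin1.

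The partners that GluN1 needs for a channel were low. Grin2a, Grin2b, Grin2c, Grin2d, Grin3a and Grin3b were each below 1 FPKM in all 9 libraries. Of the 14 ionotropic glutamate receptor genes of the list in the file, these 6 included, 2 reached 1 FPKM in the knockdown comparison, the kainate receptor subunits Grik3 (5.37 FPKM in Control, 3.33 in Yap1_KD) and Grik5 (3.96 and 3.36), both lower. Neuronal genes known as targets of the repressor REST, a group to which Grin1 also belongs, gave 0 of 9 at least 2-fold higher and 0 lower in the knockdown, near the 0.506% of all genes in each direction. Their median log2 ratio was 0.14 beside 0.0092 over all 11861 genes. Rest itself was at 67.8 FPKM in Control and 68.3 in Yap1_KD.

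Stmn3 encodes a stathmin, a protein of neurons that takes tubulin out of microtubules. Its levels were 15.4 FPKM in ESC, 26.8 in Yap1_KO1 and 35.0 in Yap1_KO2. They were 7.80 in Control and 17.4 in Yap1_KD, and 11.4 in BirA and 5.48 in Yap1_OE. The FPKM ratios were 1.74 (95% interval 1.47 to 2.07), 2.27 (1.95 to 2.64), 2.22 (1.87 to 2.66) and 0.480 (0.384 to 0.602). The knockdown level of 17.4 lay close to the 15.4 of ESC, and the controls spanned 1.98-fold. Stmn2, another neuronal stathmin, was at 248 FPKM in Control and 255 in Yap1_KD, and the ubiquitous Stmn1 at 62.5 and 68.8. Stmn4 was at 0 FPKM in 5 libraries. Of 9 and 10 stathmin and neuronal microtubule genes at 1 FPKM or more, 0 were at least 2-fold apart in the knockout or the knockdown comparison, which is near the share of all genes (0.191% higher and 0.979% lower, and 0.506% each way). In the differentiated knockdown 3 of 10 of the list (Stmn2, Stmn4 and Mapre3) were at least 2-fold lower, beside 4.77% of all genes. At least 2-fold higher were 0, beside 1.71%, and the median log2 ratio of the list was -0.50. The genes beside Stmn3, Gmeb2 and Rtel1, were at 8.05 and 15.5 FPKM in Control and at 9.58 and 16.5 in Yap1_KD.

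The promoters of Grin1 and Stmn3 are shown because they hold the core TEAD motif GGAATG, which was searched on both strands and was the only motif searched. Each is the stretch of 250 bases before the annotated start, 5′ to 3′, from RefSeq on GRCm38.p6, and capitals mark the motif, on the printed strand in Stmn3 and on the other strand in Grin1. Grin1 covers chr2:25319188-25319437 and Stmn3 chr2:181314501-181314750, both on the minus strand.
Grin1: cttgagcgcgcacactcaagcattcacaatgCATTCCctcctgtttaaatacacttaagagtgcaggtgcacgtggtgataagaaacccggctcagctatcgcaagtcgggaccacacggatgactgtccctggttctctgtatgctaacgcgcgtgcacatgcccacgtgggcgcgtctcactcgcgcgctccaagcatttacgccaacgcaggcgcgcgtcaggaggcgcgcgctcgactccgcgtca
Stmn3: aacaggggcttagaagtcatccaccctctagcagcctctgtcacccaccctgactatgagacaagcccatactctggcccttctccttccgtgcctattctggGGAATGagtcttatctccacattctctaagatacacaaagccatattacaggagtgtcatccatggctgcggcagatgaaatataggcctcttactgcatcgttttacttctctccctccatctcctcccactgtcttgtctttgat

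The motif begins 219 bases before the Grin1 start and 147 bases before the Stmn3 start. Of the 6 windows that RefSeq gave for 5 of the genes, 2 hold it, and the windows of Vax2os, Trh and Rpl10l do not. Of 16887 such windows of genes in the file, 11.4% hold it. A match says only that these letters are present, and no binding data are part of these libraries.

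Rpl10l is an intronless copy of the X-linked ribosomal protein gene Rpl10 on an autosome, and it is known for expression in the male germline. It was at 85.6 FPKM in ESC, 143 in Yap1_KO1 and 154 in Yap1_KO2. Its levels were 82.7 in Control and 131 in Yap1_KD, and 73.0 in BirA and 34.3 in Yap1_OE. The FPKM ratios were 1.67 (95% interval 1.55 to 1.80), 1.80 (1.67 to 1.93), 1.58 (1.49 to 1.68) and 0.470 (0.428 to 0.516). They were the smallest of the 6 genes in the loss libraries, but the controls also differed least, by 1.17-fold. The knockout-labelled pair was close, at a mean of 148 ± 7.46 FPKM (SD, n = 2).

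The coding sequences of Rpl10l and its parent differ, but how well their reads are told apart was not tested. Over the coding sequence of 645 bases the GENCODE transcripts of Rpl10l and Rpl10 are 84.8% identical, and the longest stretch they share is 23 bases. Rpl10 stood at 2.31 to 3.92 FPKM in the 9 libraries. It has 6 annotated pseudogene copies, which were not compared with Rpl10l, and its own value is uncertain. Among the other ribosomal protein paralogs 0 of 9 were at least 2-fold apart in the knockout or knockdown comparison, near the share of all genes (0.191% higher and 0.979% lower, and 0.506% each way). Rpl39l, another copy used in the germline, was at 68.0 FPKM in Control and 104 in Yap1_KD but at 54.5 in ESC against 52.1 and 63.2 in the knockout-labelled libraries. Rpl3l, a paralog of striated muscle, was at 2.37 and 3.35 FPKM in the knockdown pair, and at 2.16 in BirA against 0.367 in Yap1_OE. Autosomal copies of other X-linked genes at 1 FPKM or more (Rbmxl2, Utp14b and Cstf2t) had a median log2 ratio of -0.012 in the knockdown.

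Across the undifferentiated libraries, 5 of the 6 genes had each loss library above every control (Vax2os was the exception). Yap1_OE was below every control for 5 (Trh was the exception). The shares of all genes that meet these rules were not computed, so these counts have nothing to be set against. A 2-fold rule on log2(FPKM + 1), where the added 1 understates differences of low genes, is met by 2 of 6 in both knockout-labelled libraries (Vax2 and Vax2os). In that comparison 0.191% of 11538 genes were at least 2-fold higher in both, and without Yap1_KO1 the count was 5 of 6. Under the knockdown 5 of 6 met it (all but Rpl10l), where 0.506% of 11861 genes did. Under overexpression 4 of 6 were at least 2-fold lower (Vax2, Vax2os, Grin1 and Rpl10l), where 2.35% of 11599 genes were. These contrasts chose the genes, and nothing further is read from the counts.

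**Figure D2:**
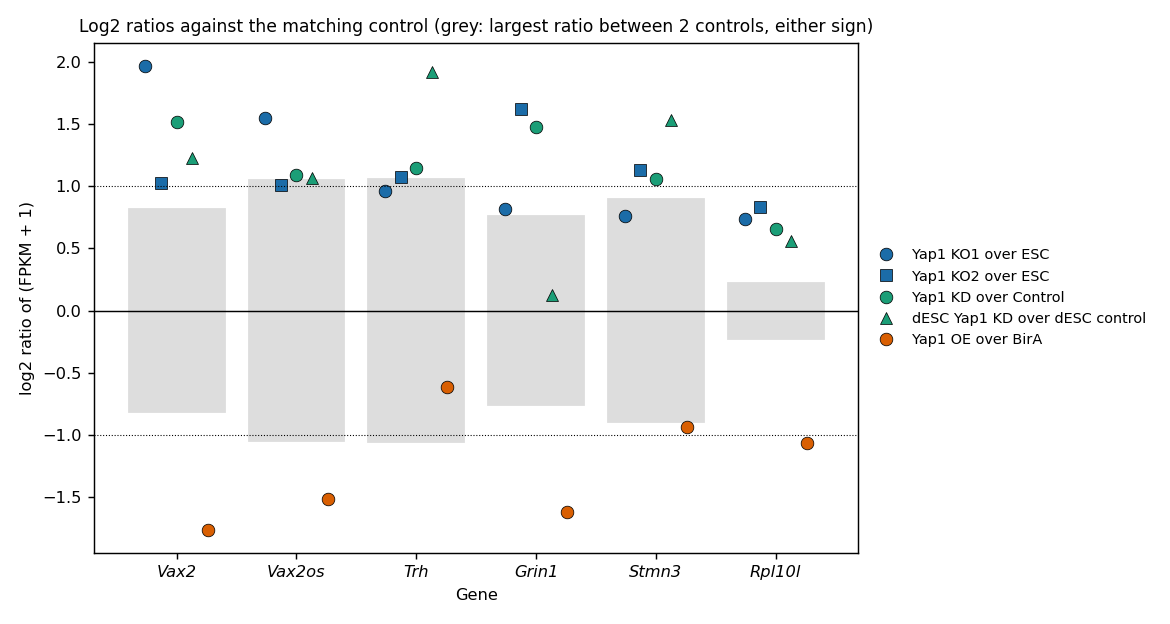
Log2 ratio of (FPKM + 1) of each gene against its own control (vertical axis; dotted lines at 2-fold), 1 point for each library, with the grey boxes showing the largest ratio between any 2 of the undifferentiated controls, drawn in either sign. The points of Rpl10l lie clear of its narrow grey box, while the overexpression point of Trh (-0.61) and the differentiated knockdown point of Grin1 (0.13) are among those within the control spread.

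Of 9012 genes at 5 FPKM or more in an undifferentiated library, small RNAs left out, 981 (10.9%) had all 4 log2 ratios in the direction of the 6 genes. Ordered by the smallest of the 4, Vax2, Vax2os, Grin1 and Stmn3 took ranks 1 to 4, with 1.03, 1.01, 0.82 and 0.76. Rpl10l was at rank 8 with 0.65 and Trh at rank 11 with 0.61. The genes ranked among them were Boll, an RNA-binding protein of germ cells (0.75), the tetraspanin Cd37 (0.71), the lipase Liph (0.71), Smim22 (0.63) and Ppp1r14d, a phosphatase inhibitor (0.62). Just behind Trh came the adenylate kinase Ak4 (0.60), the epoxide hydrolase Ephx2 (0.60), Gm1631 (0.59), the ETS factor Spic (0.58) and Ccbl2, a kynurenine aminotransferase (0.56). These 4 ratios are the ones that chose the genes, so their high ranks follow from the choice and are not a result. The list is continuous, and the 6 genes are not set off from it by a gap.

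**Figure D3:**
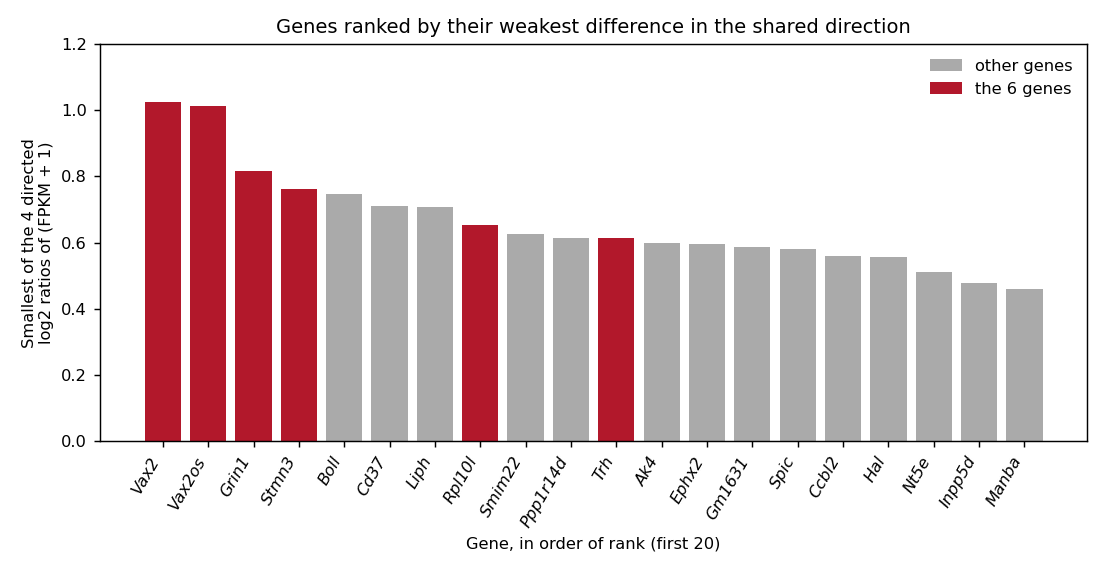
The first 20 genes by the smallest of 4 directed log2 ratios of (FPKM + 1): Yap1_KO1 and Yap1_KO2 over ESC, Yap1_KD over Control and BirA over Yap1_OE. Bars in red are the 6 genes, which stand from 1.03 (Vax2) to 0.61 (Trh), with 5 other genes between Stmn3 and Trh. The same 4 ratios chose the 6 genes, so their place in the order is not a result.

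The pair labelled as differentiated shows the same genes under Yap1 knockdown in libraries that the reason for the choice does not name. Because earlier results of these data were known at the choice, the pair is not an independent check. These libraries kept ES cell markers: Pou5f1 was at 927 FPKM in dESC_control and 1115 in dESC_Yap1_KD beside 1138 in Control, while Zfp42 was at 49.7 and 98.3 beside 409. Each of the 6 was higher in dESC_Yap1_KD than in dESC_control. Trh was at 296 FPKM against 77.5, a ratio of 3.82 (95% interval 3.63 to 4.02). Stmn3 was at 20.7 against 6.49, a ratio of 3.19 (2.60 to 3.90). Rpl10l was at 13.1 against 8.59, a ratio of 1.53 (1.23 to 1.89).

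Vax2os was at 1.42 FPKM against 0.158, a ratio of 8.98 (95% interval 4.79 to 17.0), and Vax2 at 1.46 against 0.0474. The Vax2 control value stands for about 1 fragment against about 24 in the knockdown, which gives a ratio of 30.8 with an interval of 5.74 to 1448. Grin1 was at 0.221 against 0.118 FPKM, about 13 and 10 fragments, and with an interval of 0.772 to 4.86 around a ratio of 1.87 a difference was not detectable at this depth. By the 2-fold rule 4 of 6 were higher (Vax2, Vax2os, Trh and Stmn3), where 1.71% of 11845 genes were. Grin1 was below 1 FPKM in both libraries and was not among those 11845, and Vax2 and Vax2os were among them only through the knockdown library. Any amount of increase was found for 48.5% of all genes.

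Of the 10 genes ranked next in undifferentiated cells 9 were higher in dESC_Yap1_KD, 6 of them at least 2-fold, and Ppp1r14d (1.33 FPKM in dESC_control, 1.19 in dESC_Yap1_KD) was the exception. Of all 975 other genes with the same 4 directions, 638 (65.4%) were higher in the differentiated knockdown and 42 were at least 2-fold higher. Markers of the ES state moved in the same pair, though not all in 1 direction. Of 11 naive pluripotency genes 5 (Esrrb, Klf2, Nr0b1, Prdm14 and Fgf4) were at least 2-fold higher in dESC_Yap1_KD, beside 1.71% of all genes. At least 2-fold lower were 0, beside 4.77% of all genes, and the median log2 ratio was 0.97. Klf4 (9.10 FPKM in dESC_control, 5.83 in dESC_Yap1_KD), Klf5 (141 and 95.4) and Tbx3 (27.0 and 15.7) were lower by less than 2-fold. The summed level of the 7 ES cell markers was 3182 FPKM in dESC_Yap1_KD against 2081 in dESC_control, and 0 of the 7 were at 0 in either. Genes of the formative and primed epiblast were also higher there in the median, with a log2 ratio of 0.58. Of these 10 genes 2 (Dnmt3a and Zic2) were at least 2-fold higher, beside 1.71% of all genes. At least 2-fold lower was 1 (Dnmt3l), beside 4.77% of all genes. In undifferentiated cells 1 of the 11 naive genes (Dppa3) was at least 2-fold higher under knockdown, beside 0.506% of all genes. Their median log2 ratio was 0.16, while Dppa3 was lower in the knockout-labelled libraries (5.50 FPKM in ESC, 0.667 and 3.90). Under overexpression 1 of 11 (Tbx3) was at least 2-fold lower, beside 2.35% of all genes, and the median log2 ratio of the naive genes was -0.37. In dESC_control over Control 9 of the 11 naive genes were at least 2-fold lower, beside 10.1% of all genes, with a median of -1.67. The part of these markers in the levels of the 6 genes was not tested.

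**Figure D4:**
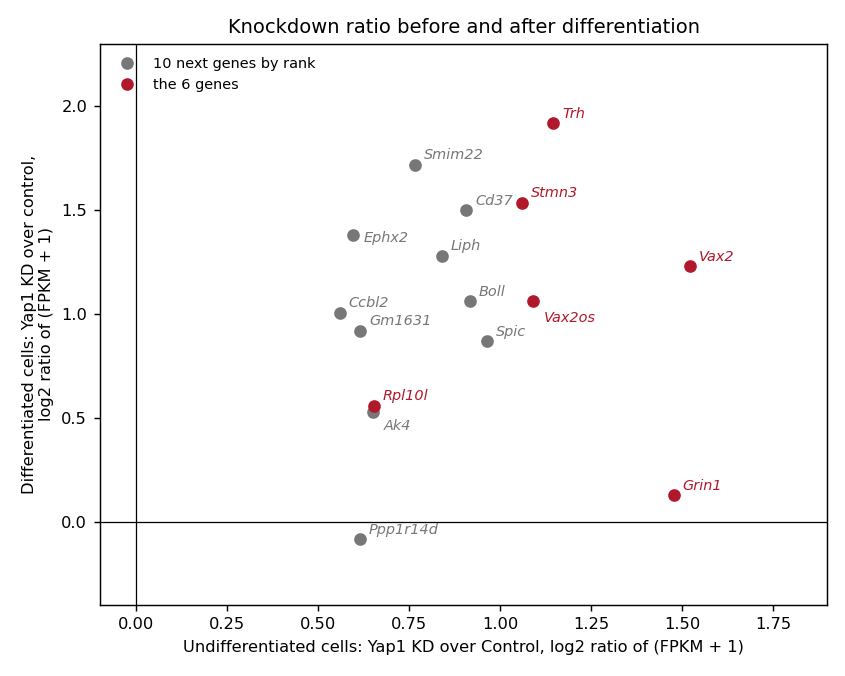
Log2 ratio of (FPKM + 1) under Yap1 knockdown in undifferentiated cells (horizontal axis) and in differentiated cells (vertical axis) for the 6 genes (red) and the 10 genes ranked next (grey), 1 library against 1 in each direction. Trh and Stmn3 have larger ratios in differentiated cells (1.92 and 1.54), Grin1 is close to 0 there (0.13), and Ppp1r14d lies just below 0.

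In control cells Rpl10l was at 82.7 FPKM before and 8.59 after, Grin1 at 3.25 and 0.118, Vax2os at 2.72 and 0.158, and Vax2 at 1.84 and 0.0474. These 4 genes were at least 2-fold lower, where 10.1% of 12436 genes were. Trh (76.4 and 77.5 FPKM) and Stmn3 (7.80 and 6.49) were nearly level. This split depends on the control: against ESC the log2 ratio of Stmn3 was -1.13 and that of Vax2os -0.82, so that Stmn3 was past 2-fold and Vax2os was not. Against BirA Trh was at -1.04 and Stmn3 at -0.73, which made 5 of 6 at least 2-fold lower. With the GC trend removed Stmn3 was at -0.57. Under knockdown the same 4 were at least 2-fold lower in differentiated cells (Rpl10l 131 and 13.1, Grin1 10.8 and 0.221, Vax2os 6.92 and 1.42, Vax2 7.15 and 1.46), where 10.4% of 12281 genes were. Trh was at 170.2 FPKM before and 296 after, and Stmn3 at 17.4 and 20.7. Yap1 was higher after differentiation in both arms, from 37.4 to 78.0 FPKM in control cells and from 4.55 to 12.5 under knockdown.

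Over the 9 libraries Pearson r of log2(FPKM + 1) ran from 0.29 (Trh with Rpl10l) to 0.96 (Vax2 with Vax2os) for the 15 pairs, and it was 0.31 for Trh with Grin1. Trh and Stmn3 were at 0.89, and Grin1 and Rpl10l at 0.88. The genes most like Rpl10l were Acadm, an enzyme of fatty acid oxidation (0.99), Morc1, a germline gene (0.99), and Fig4, a lipid phosphatase (0.99). Those most like Grin1 were Cdk2 (0.98), Ptpn6 (0.97) and Sun1 (0.97). Stmn3 was most like Ap3s2 (0.975), Ugdh (0.96) and Sox13 (0.93), and Trh most like Ugdh (0.93), Stmn3 (0.89) and Vrk3 (0.88). After each other, Vax2 was most like Ccbl2 (0.96) and Rhov (0.94), and Vax2os most like Rhov (0.95) and Nxt2 (0.94). All values share the 9 libraries and are descriptions; a gene had to reach 5 FPKM in 1 of them to be compared.

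Markers of other cell types were checked because Vax2, Grin1 and Stmn3 are known from the nervous system. The summed level of 12 neural progenitor and neuron markers was 8.81 to 10.7 FPKM in the 3 undifferentiated controls, 7.87 and 6.37 in Yap1_KO1 and Yap1_KO2 and 7.996 in Yap1_KD, so it was lower in the loss libraries, and it was 16.8 in Yap1_OE. Between 2 and 5 of the 12 were at 0 in each library. It was 54.1 in dESC_control and 33.4 in dESC_Yap1_KD, most of it Nes (50.1 and 28.6 FPKM). Of the 5 germ cell markers at 1 FPKM or more, relevant to Rpl10l, 0 were at least 2-fold apart in both knockout-labelled libraries or in the knockdown. This is near the share of all genes (0.191% higher and 0.979% lower, and 0.506% each way). Under overexpression 1 of 5 (Stra8, 4.07 FPKM in BirA and 0.308 in Yap1_OE) was at least 2-fold lower, beside 2.35% of all genes. The median log2 ratio of these markers was -0.48, beside 0.019 over all genes. Dazl lay in the direction of the 6 genes in all 4 undifferentiated ratios, at rank 37 of 9012 (0.38). In dESC_control over Control 3 of 5 (Dazl, Stra8 and Mael) were at least 2-fold lower, as were Rpl10l and 10.1% of all genes. Sycp3 was lower by less than 2-fold (14.1 FPKM in Control, 7.87 in dESC_control), and Ddx4 was higher (9.27 and 10.6). The part of these markers in the levels of Rpl10l was not tested. The sum of all 7 in the file was 82.6 FPKM in Control and 95.5 in Yap1_KD, and 42.4 in ESC against 56.0 and 42.0, and 38.9 in BirA against 28.4 in Yap1_OE. The sum of 7 fibroblast markers was 19.6 to 23.5 FPKM in the controls, 39.7 and 32.2 in the knockout-labelled libraries, 26.6 in Yap1_KD and 6.51 in Yap1_OE. Thy1 carried most of it (22.3 FPKM in Control, 39.2 and 32.0 in the knockout-labelled libraries and 4.64 in Yap1_OE). Col1a1 went the other way, at 0.832 FPKM in ESC against 0.453 in Yap1_KO1 and 0.132 in Yap1_KO2. It was at 1.06 in Control against 0.532 in Yap1_KD, and at 1.40 in BirA against 1.65 in Yap1_OE. Col1a2 was below 0.2 FPKM in undifferentiated libraries, and 3 or 4 of the 7 were at 0 in them. The part of these markers in the result was not tested. The 4 markers of 2-cell-like cells in the file summed to at most 0.108 FPKM.

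The sequence composition of transcripts moved with several comparisons. In the knockout-labelled libraries log2 ratios over ESC were lower for transcripts of higher GC content (Spearman rho -0.61 and -0.62, a value across genes, which are not independent replicates). The 6 genes lie on the GC-rich side, from 50.9% for Vax2os to 61.7% for Vax2. For the knockdown rho was 0.19 and for overexpression -0.19, both of the sign of the differences in the 6 genes, and for the knockout-labelled libraries it was of the opposite sign. With the knockout trend removed the log2 ratios of Vax2 were 2.29 and 1.32 instead of 1.97 and 1.03, those of Grin1 1.10 and 1.87 instead of 0.82 and 1.62, and each of the 6 was at least as high as before in both libraries. With the knockdown trend removed each of the 6 ratios was lower, Stmn3 going from 1.06 to 0.9994, and the count past 2-fold was 4 in place of 5. The part of GC content in these differences was not tested. Of the nearest neighbours, Mrps25, Gmeb2 and Rtel1 were above 1 FPKM in every library, with log2 ratios in the 5 comparisons from -0.20 (Mrps25 in Yap1_KO1) to 0.52 (Rtel1 in Yap1_KO2). Wdr20rt, beside Rpl10l, was below 1 FPKM throughout, at 0.318 FPKM in BirA and 0.0211 in Yap1_OE and at 0.332 in Control and 0.746 in Yap1_KD.

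Genes around the 6 were also tested where the design allows. In the knockout-labelled libraries against ESC, limma with Benjamini-Hochberg adjustment called 2 of 11538 genes higher (0.0173%) and 18 lower (0.156%). Of the 92 list and marker genes tested that are not among the 6, 0 passed, the smallest adjusted p being 0.0812, and 27 had an unadjusted p under 0.05, beside 23.1% of all 11538 genes. Without small RNA rows, where limma called 0.0874% of 11444 genes higher and 0.332% lower, 5 of them passed, namely the YAP targets Ctgf, Cyr61 and Ajuba and the methylation cofactor Dnmt3l, all lower, and the ectonucleotidase Nt5e, higher. Canonical YAP targets ran opposite to the 6 genes: 4 of 13 (Ctgf, Cyr61, Amotl2 and Ajuba) were at least 2-fold lower in both knockout-labelled libraries, where 0.979% of all genes were, and 1 (Nt5e) was higher. Under knockdown 2 of 12 (Cyr61 and Amotl2) were lower, beside 0.506% of all genes, and 0 higher. Overexpression had 5 of 12 higher, beside 1.6% of all genes, and 0 lower. In the differentiated knockdown 11 of 15 were lower, beside 4.77% of all genes, and 0 higher.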

How the data were processed

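Polyadenylated RNA of 9 libraries was read from 1 table, in which each row is a gene. The authors deposited FPKM values; TopHat2, Cuffdiff and build mm9 are named per the submitters' processing notes, which give no version here. Cuffdiff scales libraries against each other, which could shift ratios. Of 23277 rows, 4746 were blank and 27 carried symbols turned into dates, leaving 18504 genes. Columns were matched to samples by title.

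Computed here were FPKM ratios and log2(FPKM + 1) ratios, with 2-fold counts over genes at 1 FPKM or more in a library compared. Small RNA rows (173) were identified by RefSeq biotype or symbol. Depth was estimated from the steps between low FPKM values and the lengths of GENCODE genes with 1 transcript of at least 3000 bases, and intervals (95%, exact binomial) used estimated fragments; Grin1 and Vax2os have several transcripts (14 and 4), so their fragment numbers are rough. The knockout-labelled libraries were tested against ESC with limma 3.58.1 in R 4.3.3 (mean-variance trend, Benjamini-Hochberg at 0.05, 1 residual degree of freedom). The fit was checked on simulated data that held no GC trend, so the check does not cover the trend in these libraries. The p-values of limma reflect the spread of these libraries alone, which may be technical. GC content came from GENCODE on GRCm38, another build than the files', and promoter coordinates are those of GRCm38.p6. Promoters were matched by symbol for 5 of 6 genes.

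The members and lists were chosen with earlier results of these data known. Named are the 6 genes, Yap1, the 3 genes most like each, the 10 ranked next and nearest neighbours. Of each list, up to 4 genes of highest mean are named too. NMDA receptor subunits, Stmn4, Rpl3l, Rpl39l, Vax1, Trhr, Trhr2, Pcsk1, Mitf, Klf4 and most 2-fold list genes outside these rules were named after their values were seen. Alternatives were other pseudocounts, filters, centring, removal of the GC trend or of small RNA rows, other controls and leaving out a knockout-labelled library; the ratio with no pseudocount was added after seeing the data.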

Additional observations from a re-analysis of the deposited data

Results flagged for a closer look

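Stmn3 was singled out because differentiation took it in opposite directions in the 2 arms. Its log2 ratio was -0.23 in control cells (7.80 FPKM in Control, 6.49 in dESC_control) and 0.24 under knockdown (17.4 in Yap1_KD, 20.7 in dESC_Yap1_KD). Each arm is 1 library against 1, and the difference was not tested.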

How the results depend on the processing

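Of 275 recomputed log2 ratios of the 6 genes, 270 kept their sign. All 5 others concern Trh: with Control as the control its overexpression ratio was 0.45, and its ratio in control differentiation, close to 0 at 0.020, was -0.042 after centring, -0.21 with the GC trend removed, -0.70 against ESC and -1.04 against BirA. Counts of 2-fold genes moved with a pseudocount of 5 FPKM, which shrinks low genes: 0 of 6 in the knockout-labelled libraries, 1 in the knockdown, 0 under overexpression, 2 in the differentiated knockdown, and 1 and 2 lower with differentiation in control and knockdown cells. The knockout count of 2 was 0 after centring on the median gene, 4 with the GC trend removed, 1 against BirA, and from 2 to 5 when Yap1_KO2 or Yap1_KO1 was left out (5 without Yap1_KO1). The knockdown count of 5 was 3 against ESC and 1 against BirA, and the overexpression count of 4 was 2 against ESC; the cause was not tested. The differentiated knockdown count of 4 held under each setting run except the pseudocount of 5. Limma counts, 2 higher and 18 lower, were 1 higher at pseudocount 5, 0 and 0 with no filter (17.4% of genes then had an unadjusted p under 0.05 by limma), 10 and 38 without small RNA rows, and 7 and 34 with the GC trend removed. Limma without a knockout-labelled library leaves no residual degree of freedom and was not run. No paired analysis was possible because each group compared has 1 library except the knockouts, whose control has 1. Depth limits Grin1 and Vax2 in differentiated cells.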
